A study of Mus musculus with 10 samples.

Results

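The complement genes of ASZ001 cells are described here as 9 genes, C1s1, C1ra, C4b, C3, Cfb, Serping1, Cd55, Cd59a and C1qtnf3, taken by gene symbol from both RPKM tables, which hold 17658 and 16719 named genes. All 9 are listed in both tables. They were selected on the RPKM differences between inhibitor and DMSO in these same libraries, with the response to both inhibitors known, so their levels, fold changes and calls in the 2 contrasts are a description of these libraries, and no p-value is given for them. ASZ001 is a single murine basal cell carcinoma (BCC) cell line, which the study uses as a model of resistant BCC. All cells were held in low-serum medium for 24 h. In one experiment they received DMSO, the vehicle (3 libraries), or 10 µM SB431542, which blocks the TGFß receptor kinase ALK5 (3 libraries). In the other they received DMSO (2 libraries) or 20 µM T-5224, which blocks AP-1 (2 libraries). RPKM is a read number scaled by gene length and by library size. The tables were normalized separately, so an inhibitor was set only against the DMSO samples of its own table.

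Complement is a cascade of plasma proteases and binding proteins that marks surfaces for removal. In the classical pathway, C1q bound to its target activates the proteases C1r and C1s, C1s cleaves C4 and C2, and the resulting convertase cleaves C3. Factor B forms the convertase of the alternative pathway. C1 inhibitor stops C1r and C1s, CD55 (decay-accelerating factor) breaks up convertases on the cell's own membrane, and CD59 blocks the final pore. Liver and macrophages are main sources, and keratinocytes also make several of the components. C1qtnf3 encodes CTRP3, a secreted protein that shares the C1q-type globular domain but is not a step of the cascade.

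The DMSO libraries held transcripts of the C1 proteases, of C1qtnf3 and of the membrane regulators, and almost none of C3, C4b, Cfb and Serping1. C1s1 stood highest, at 34.05 ± 1.11 RPKM (SD, n = 3) in the SB431542 experiment and 26.4 ± 0.344 RPKM (SD, n = 2) in the T-5224 experiment, above 86.9% and 82.6% of the genes listed. In the SB431542 experiment C1ra (5.72 ± 0.616 RPKM) and C1qtnf3 (4.96 ± 0.251 RPKM) followed, with overlapping libraries, and then Cd59a (2.34 ± 0.0987 RPKM) and Cd55 (0.648 ± 0.190 RPKM), each without overlap with its neighbour. In the T-5224 experiment the order was C1qtnf3 (8.88 ± 0.460 RPKM), Cd59a (5.58 ± 0.457 RPKM), C1ra (4.29 ± 0.183 RPKM) and Cd55 (1.17 ± 0.104 RPKM), with no overlap between neighbours. The 2 sets of DMSO libraries were not tested against each other. Genes with a mean of at least 1 RPKM over the libraries of a table were tested. This kept C1s1, C1ra, C1qtnf3 and Cd59a in both experiments and left out the other 5 members. C1qtnf3 in both experiments, and C1ra in the T-5224 experiment, passed only through their DMSO libraries. Their treated means were 0.378 RPKM (C1qtnf3, SB431542), 0.297 RPKM (C1qtnf3, T-5224) and 0.799 RPKM (C1ra, T-5224). At those levels in all libraries they would not have been tested.

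C3, the central component, lay between 0.067 and 0.144 RPKM in the SB431542 experiment and between 0.012 and 0.073 RPKM in the T-5224 experiment, about 14 to 30 and 3 to 12 reads a library. C4b, one of the copies of C4, was listed at 0 in 4 of 6 and 1 of 4 libraries and reached 0.014 RPKM at most. Cfb, factor B, was at 0 in 4 of 6 and 2 of 4 libraries, and no library held more than about 1 read. Serping1, the C1 inhibitor, was at 0 in 3 of 6 libraries of the SB431542 experiment, with about 2 reads in each of the others. In the T-5224 experiment it had 0.034 and 0.167 RPKM in DMSO, about 2 and 12 reads, and was listed at 0 in both T-5224 libraries, where 3 reads would have given 0.0330 and 0.0345 RPKM. Read numbers are RPKM multiplied by transcript length and library depth, and cover counting error only. At these depths no difference between the groups could be shown for C3, C4b or Cfb, whose libraries overlapped or held a few reads. The same holds for Serping1 with SB431542. With T-5224 the Serping1 groups did not overlap, but its DMSO libraries lay far apart, at about 2 and 12 reads. Serping1 was not in the main fit and had no call with T-5224 in the fit without a filter (log2 change −0.26).

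**Figure D1:**
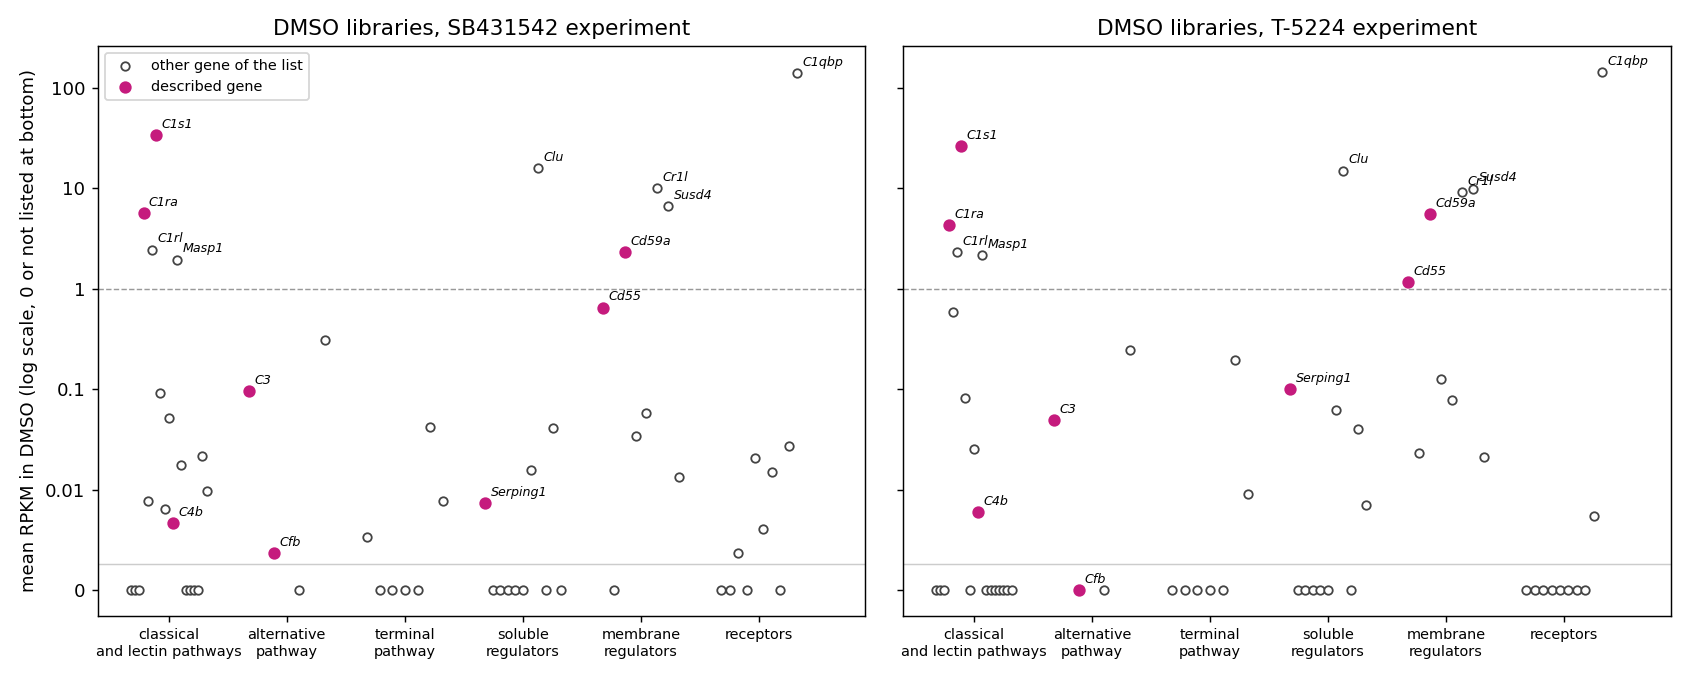
Mean RPKM in the DMSO libraries (log scale) of every gene on a list of the complement system, by step, in the SB431542 experiment (left) and the T-5224 experiment (right). Filled points are described genes, open points other genes of the list, the dashed line is 1 RPKM, and genes at 0 or not listed sit at the bottom. C1s1 and C1ra lie above the line while C3, C4b, Cfb and Serping1 lie under 0.2 RPKM.

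Most of the rest of the cascade was sparse as well. A list of 59 complement genes by step was set up from general knowledge and holds 8 of the 9 members. Genes were not picked by how they moved, but earlier results of these data were known when the list was made. In DMSO, 9 of the 59 reached 1 RPKM in the SB431542 experiment and 10 in the T-5224 experiment, while 19 and 20 were not listed at all, C1qa, C1qb and C1qc among them. None of the 4 genes of the alternative pathway and none of the 7 of the terminal pathway reached 1 RPKM. The cells were those of a keratinocyte line by their markers. All 10 basal keratinocyte and BCC markers were at 1 RPKM or more, with Krt5 at 4809 to 5007 RPKM in DMSO of the first experiment. Of the hepatocyte markers, 0 of 6 reached 1 RPKM, and of the macrophage and leukocyte markers 2 of 10 did, with Ptprc at most at 0.012 RPKM.

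The C1 proteases were lower with both inhibitors. C1s1, the protease that cleaves C4, was at 33.1, 33.8 and 35.3 RPKM in the DMSO libraries and at 13.3, 12.99 and 12.9 RPKM with SB431542. The ranges lie far apart, and the mean with SB431542 was 38.4% of that in DMSO, 2.604-fold lower. On the scale of log2(RPKM + 0.5), which was used for all fits, the change was −1.35 (standard error 0.05). With T-5224, C1s1 was at 4.95 and 5.35 RPKM against 26.2 and 26.7 RPKM in DMSO, 5.13-fold lower, and the log2 change was −2.25 (standard error 0.07).

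C1ra, the protease that activates C1s, was at 6.32, 5.09 and 5.75 RPKM in DMSO and at 3.38, 3.64 and 3.44 RPKM with SB431542. The highest SB431542 library lay below the lowest DMSO library, and the mean was at 60.9% of the DMSO mean (1.64-fold lower, log2 change −0.64, standard error 0.09). With T-5224 it was at 0.810 and 0.788 RPKM against 4.42 and 4.16 RPKM, at 18.6% of the DMSO mean (5.36-fold lower, log2 change −1.88, standard error 0.11). Per length, C1s1 exceeded C1ra 5.24-, 6.65- and 6.13-fold in DMSO and 3.93-, 3.57- and 3.77-fold with SB431542, without overlap, so the fold was larger for C1s1. In the T-5224 experiment the ratio was 5.93 and 6.41 in DMSO and 6.10 and 6.79 with T-5224, and both genes were lower by nearly the same factor.

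C1qtnf3 was reduced most of the 4 members tested. Its libraries were at 4.74, 5.24 and 4.92 RPKM in DMSO and at 0.328, 0.437 and 0.368 RPKM with SB431542. The treated level was 7.61% of that in DMSO, 13.1-fold lower, with about 31 reads in the lowest library. With T-5224 it was at 0.311 and 0.283 RPKM against 9.20 and 8.55 RPKM, at 3.35% of the DMSO mean and 29.9-fold lower. The log2 changes were −2.64 (standard error 0.09) and −3.56 (standard error 0.11), which understate these folds because the treated levels are below the 0.5 RPKM that was added. With 0.1 RPKM added they were −3.41 and −4.50, and with 1 RPKM added −2.11 and −2.93.

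The membrane regulators moved less. Cd59a, an inhibitor of the membrane pore, was at 2.39, 2.40 and 2.22 RPKM in DMSO and at 1.73, 1.79 and 1.76 RPKM with SB431542. The groups did not overlap, and the mean was 1.33-fold lower (log2 change −0.33, standard error 0.08). That call was lost in 4 of 6 fits with a library left out, namely without DMSO replicate 2 or without any of the 3 SB431542 libraries, where the change lay between −0.34 and −0.31. With T-5224, Cd59a was at 3.90 and 3.40 RPKM against 5.91 and 5.26 RPKM, 1.53-fold lower (log2 change −0.55, standard error 0.10). Cd55 was at 0.867, 0.553 and 0.525 RPKM in DMSO and at 0.523, 0.519 and 0.278 RPKM with SB431542, where the groups touch at 0.525 and 0.523 RPKM. With T-5224 it was at 0.540 and 0.413 RPKM against 1.09 and 1.24 RPKM, 2.45-fold lower and without overlap, on about 51 to 123 reads a library. Cd55 was under the lowest mean tested and has no call.

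**Figure D2:**
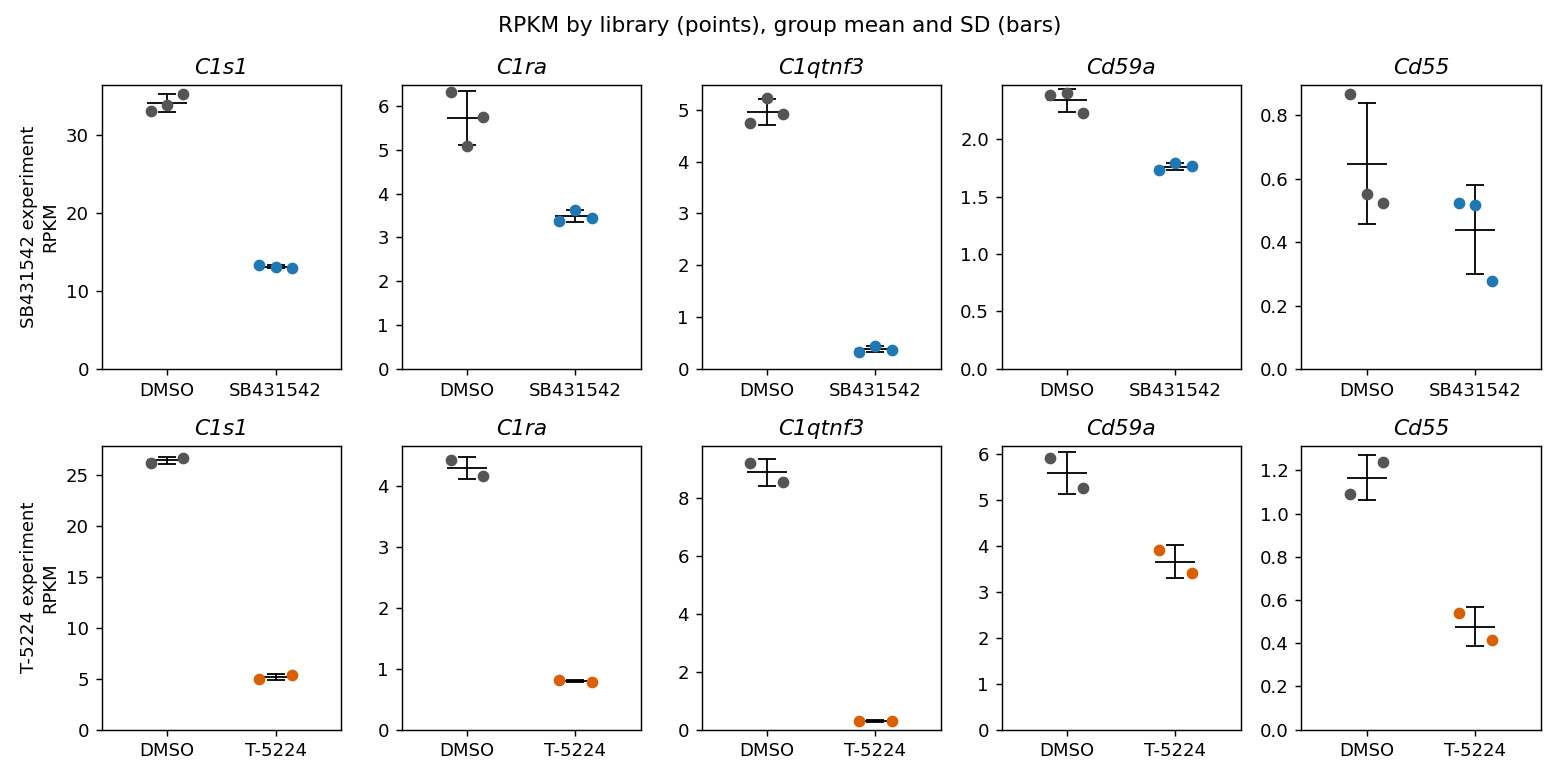
RPKM of the 5 members with more than a few reads in every library (points), with the group mean and SD (bars), for the SB431542 experiment (upper row, n = 3 and 3) and the T-5224 experiment (lower row, n = 2 and 2). Treated libraries lie below all DMSO libraries in each panel, by the narrowest margin for Cd55 with SB431542.

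Of the 4 members tested, 4 were lower with SB431542 at an adjusted p under 0.05 (limma, Benjamini-Hochberg over all genes), where 10.0% of all genes tested were lower, and 2 (C1s1 and C1qtnf3) were also down more than 2-fold, as were 0.581% of all genes. With T-5224, 4 of the 4 were lower, where 39.4% of all genes were, and 3 (C1s1, C1ra and C1qtnf3) were down more than 2-fold, as were 10.6% of all genes. None was higher in either experiment, where 10.2% (SB431542) and 40.3% (T-5224) of all genes were, and 0.231% and 10.4% were up more than 2-fold. Nothing is read from these counts, since the members were chosen with the contrasts known. The 5th percentile of the log2 changes of all genes tested was −0.43 with SB431542 and −1.51 with T-5224. C1s1, C1ra and C1qtnf3 lay below it in each experiment and Cd59a above it. Whether a member responded more to one inhibitor than to the other was not tested.

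**Figure D3:**
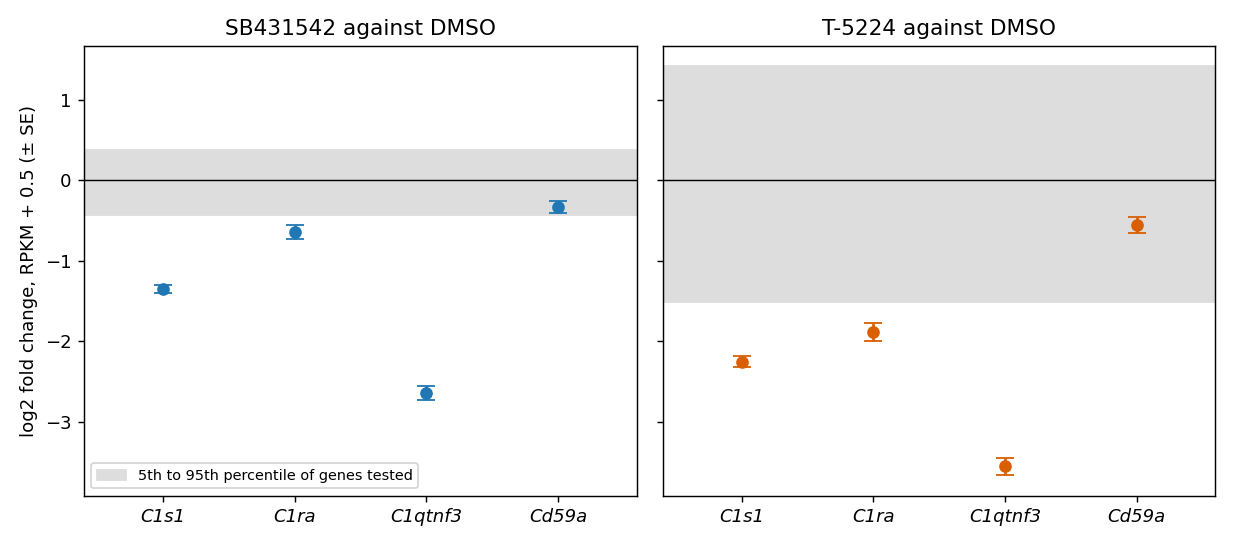
Log2 fold change (± SE) of the 4 members tested, on the scale of RPKM + 0.5, for SB431542 (left) and T-5224 (right) against DMSO. The grey band spans the 5th to the 95th percentile of all genes tested. C1s1, C1ra and C1qtnf3 lie below the band in both panels and Cd59a lies within it.

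The libraries with T-5224 also differed in the markers of the cell line. The summed level of the 10 basal keratinocyte and BCC markers was 15539 to 16419 RPKM in DMSO and 2484 to 2594 RPKM with T-5224, and 11491 to 11696 RPKM in DMSO and 7991 to 8547 RPKM with SB431542. Most of each sum came from Krt5 and Krt14. With T-5224, 9 of the 10 were lower and 1 was higher, against 39.4% and 40.3% of all genes. With SB431542, 5 were lower, 1 was higher and 4 had no call, where 10.0% of all genes were lower and 10.2% higher. The summed level of the 10 macrophage and leukocyte markers was 19.7 to 21.98 RPKM in DMSO and 35.6 to 35.7 RPKM with T-5224, nearly all from Cd68 (means 17.6 and 32.97 RPKM), while Cd14 had no call and 5 of the 10, Csf1r among them, were not listed. The same sum was 9.42 to 12.5 RPKM in DMSO and 10.1 to 10.3 RPKM with SB431542, with no call for the 2 markers tested. For fibroblast markers the sums were 2.71 to 2.75 and 2.72 to 2.92 RPKM in the T-5224 experiment and 3.94 to 4.12 and 4.30 to 4.72 RPKM in the SB431542 experiment, with Col1a1 at most at 0.102 RPKM. Of these 10 markers, 2 were tested with SB431542, where Dcn was higher (log2 change 0.68) and Postn lower (−0.93), and 1 with T-5224, where Dcn was higher (0.35). Cd68, Cd14, Dcn and Postn were named after their values were seen. For endothelial markers they were 11.1 to 12.1 and 4.29 to 4.80 RPKM, and 5.36 to 6.75 and 2.76 to 2.999 RPKM, nearly all from Pecam1. The hepatocyte markers never summed to more than 0.195 RPKM. The part of these marker shifts in the values of the members was not tested. In bulk RNA, fewer expressing cells and less RNA per cell cannot be told apart.

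C1ra and C1s1 are neighbours in the genome. In the GENCODE annotation of NCBIM37, the assembly behind mm9, C1ra lies on the plus strand of chromosome 6 from 124462650 to 124473458 and C1s1 on the minus strand from 124480363 to 124492339, with 6.91 kb between their 3′ ends. The other members lie elsewhere, C1qtnf3 on chromosome 15 (10882112 to 10909461), Cd59a and Serping1 on chromosome 2 (103935958 to 103955506 and 84605544 to 84615561), Cd55 on chromosome 1 (132335604 to 132359321), and C3, C4b and Cfb on chromosome 17 (57343397 to 57367559, 34865325 to 34880827 and 34993329 to 34999459). Within 200 kb on either side of the C1ra and C1s1 pair there are 13 other protein-coding genes, of which 8 were tested. With SB431542, 1 of the 8 was lower and 2 were higher, with log2 changes between −0.52 and 0.41. With T-5224, 3 were lower and 3 were higher, with log2 changes between −0.77 and 0.79. None of the 8 fell as far as C1ra or C1s1 in either experiment.

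**Figure D4:**
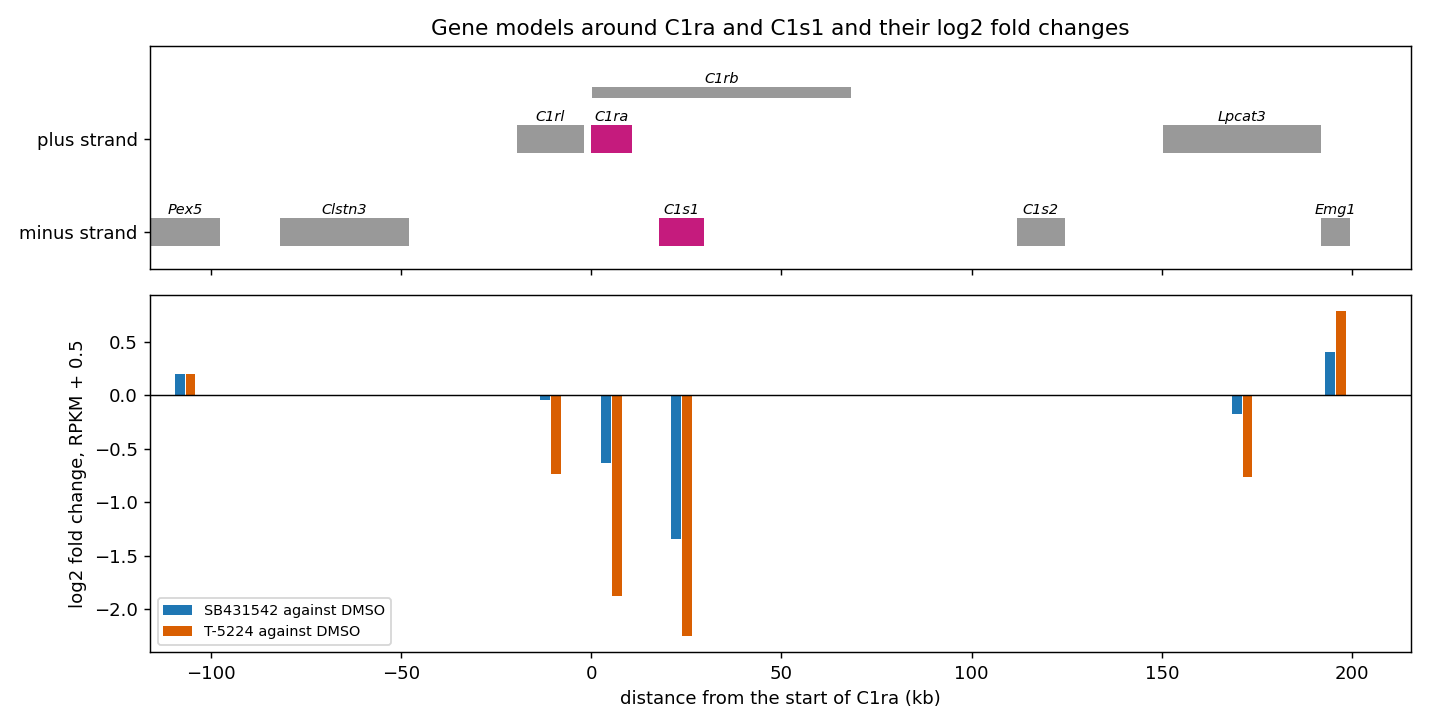
Protein-coding gene models around C1ra (upper panel, distance from the start of C1ra in kb, by strand, with the C1rb model drawn thin because it spans other genes) and the log2 fold change of those tested (lower panel, bars at gene centres, RPKM + 0.5). The longest downward bars for both inhibitors are those of C1ra and C1s1, and the neighbours stay between −0.77 and 0.79.

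Both proteases have near-identical copies close by, so the split of reads between copies is uncertain. The coding parts of C1ra and C1rb are 98.0% identical, and 47.5% of the 50-base windows of the C1ra transcript also occur in C1rb. In the same annotation the C1rb model starts inside C1ra. For C1s1 and C1s2 the values are 95.7% and 24.3%, and an antisense transcript, Gm16567, overlaps C1s1. Whether the counting used strand is not given in the sources used here. C1rb was at 0.590 and 0.586 RPKM in DMSO and at 0.036 and 0.084 RPKM with T-5224, lower in both treated libraries as C1ra was. In the SB431542 experiment C1rb never exceeded 0.023 RPKM. With the copies added, C1ra plus C1rb was 1.64-fold lower with SB431542 and 5.67-fold lower with T-5224, and C1s1 plus C1s2 was 2.57-fold and 5.13-fold lower. Cd59a shares 4.0% of its windows with Cd59b, which was at most at 0.178 RPKM. C4a, the copy of C4b, stayed between 0.023 and 0.078 RPKM, and Cd55b was at most at 0.046 RPKM.

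Upstream sequences are shown for C1s1 and C1qtnf3, which were down more than 2-fold with both inhibitors, and for Cd59a, which was lower by less. Each is the 250 bases before the RefSeq start (table of GRCm38.p6, first entry of the gene), 5′ to 3′ on the gene's strand, placed by an exact match on NCBIM37. Capitals mark matches, on either strand, to any of 6 motifs searched, AP-1 (TGANTCA), a SMAD element (CAGACA), the STAT site GAS (TTCNNNGAA), the interferon element ISRE (GAAA, 2 free bases, GAAA), NF-kB (GGG, 2 free bases, TTTCC) and C/EBP (TTGCNNAA).
C1s1, minus strand, chr6:124492378-124492627: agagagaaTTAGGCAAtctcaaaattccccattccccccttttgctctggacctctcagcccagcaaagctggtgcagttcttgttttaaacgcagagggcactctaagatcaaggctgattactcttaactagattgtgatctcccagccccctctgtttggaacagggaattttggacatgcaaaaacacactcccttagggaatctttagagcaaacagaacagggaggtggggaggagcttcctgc
C1qtnf3, plus strand, chr15:10881837-10882086: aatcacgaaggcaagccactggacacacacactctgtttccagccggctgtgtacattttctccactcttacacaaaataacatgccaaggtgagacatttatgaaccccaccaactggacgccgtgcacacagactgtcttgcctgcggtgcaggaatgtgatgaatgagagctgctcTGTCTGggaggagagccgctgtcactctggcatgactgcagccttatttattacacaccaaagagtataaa
Cd59a, plus strand, chr2:103935708-103935957: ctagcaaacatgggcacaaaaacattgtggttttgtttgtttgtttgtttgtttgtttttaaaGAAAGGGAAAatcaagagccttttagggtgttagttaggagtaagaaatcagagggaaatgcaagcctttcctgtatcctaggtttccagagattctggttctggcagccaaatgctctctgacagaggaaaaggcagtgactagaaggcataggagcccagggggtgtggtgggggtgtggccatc
The C1qtnf3 window holds 1 SMAD match, at −71 from the start, a match that 17.1% of 27025 promoter windows of this length have. The C1s1 window holds 1 C/EBP match at −242, as do 9.6% of the windows, and the Cd59a window 1 ISRE match at −187, as do 3.0%. Of the windows not shown, that of C3 holds 1 C/EBP match at −45, and those of C1ra and Cd55 hold no match. No matches overlap. The AP-1 letters occur in 6.9% of all windows and in none of the 6 windows of members in the table, those of C1ra, C3 and Cd55 included, which says only that they are not in these 250 bases. C4b, Cfb and Serping1 had no window in the table.

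The other complement genes were followed in the same fits. Of the 51 genes of the list that are not members, 6 were tested, and all 6 are named here although some were chosen after their values were seen. With SB431542, 2 of the 6 fell, against 10.0% of all genes, and 1 rose, against 10.2%. Masp1, a protease of the lectin pathway, went from 1.96 ± 0.153 to 1.17 ± 0.0808 RPKM (SD, n = 3 each, log2 change −0.56, standard error 0.09, adjusted p = 0.00704, limma), and Clu, clusterin, which holds back the terminal complex, from 15.9 ± 1.21 to 11.4 ± 0.379 RPKM (log2 change −0.45, standard error 0.07, adjusted p = 0.00552, limma). C1qbp, a mostly mitochondrial protein that binds C1q, rose by 0.36 on the log2 scale (adjusted p = 0.00275, limma). C1rl, a C1r-like protease, had −0.04, and the membrane regulators Cr1l and Susd4 had −0.10 and −0.03, with no call. The median log2 change of the 6 was −0.07, against 0.008 over all genes tested.

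With T-5224, 4 of the 6 fell, against 39.4% of all genes, and 2 rose, against 40.3%. Clu went from 15.1 to 5.96 RPKM (log2 change −1.27, adjusted p = 8.41e-08, limma, all T-5224 libraries below all DMSO libraries) and Masp1 from 2.16 to 0.789 RPKM (−1.04). Masp1, counted among the 4, was tested only because of its DMSO libraries, since its T-5224 mean was under 1 RPKM. C1rl (−0.74, adjusted p = 1.50e-04, limma) and Susd4 (−0.38, adjusted p = 8.61e-04, limma) fell by less. Cr1l, the main membrane inhibitor of C3 convertases in rodents, rose by 0.85 (adjusted p = 5.54e-07, limma), as did C1qbp by 0.85 (adjusted p = 3.20e-08, limma). The median of the 6 was −0.56, against 0.003 over all genes. C1ra, C1s1, Cd59a, Masp1 and Clu were thus lower in both experiments, though the call of Cd59a with SB431542 did not hold in all fits. With T-5224, C1ra and Masp1 passed the filter only through their DMSO libraries. C1ra, C1s1 and Cd59a had been selected with the contrasts known. Of the membrane regulators, Cd59a and Susd4 were lower with T-5224, Cd55 was lower without a call, and Cr1l was higher.

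Few relatives of C1qtnf3 were expressed. Of 15 C1q and TNF related genes, 3 reached 1 RPKM in DMSO in each experiment. With SB431542, C1qtnf3 was lower and the other two, C1qtnf4 and Erfe, had no call (log2 changes −0.39 and 0.15). With T-5224, C1qtnf4 had −0.04 and no call, and Erfe, which encodes the hormone erythroferrone, rose from 1.31 ± 0.00707 to 9.07 ± 0.0764 RPKM (SD, n = 2 each, log2 change 2.40, adjusted p = 7.97e-10, limma). Other relatives were under the lowest mean tested and have no call. C1qtnf1 went from 0.396 to 0.219 RPKM with SB431542 and from 0.49 to 0.082 RPKM with T-5224. C1qtnf6 went from 0.245 to 0.122 and from 0.368 to 0.048 RPKM. Neither gene's groups overlapped in either experiment. C1qtnf12 went from 0.328 to 1.41 RPKM with T-5224. C1ql3 went from 0.0347 to 0.102 RPKM with SB431542 and from 0.12 to 0 RPKM with T-5224. C1ql3 never exceeded 0.152 RPKM, and its read numbers were not worked out. These names were chosen after their values were seen. The differences between family members were not tested.

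A list of 22 transcription factors and cytokine receptors known to act on complement genes was counted beside the members. With SB431542, 3 of the 20 tested fell, against 10.0% of all genes, and 2 rose, against 10.2% (median log2 change −0.04). Nr1h4, the bile acid receptor FXR (−0.75), and Stat2, a factor of interferon signalling (−0.48, adjusted p = 0.0370, limma), fell, and Cebpd, a C/EBP factor, rose by 0.39 (adjusted p = 0.0206, limma). Nr1h4 went from 1.67 RPKM in DMSO to 0.811 ± 0.275 RPKM with SB431542 (mean, SD). It passed the filter only through its DMSO libraries. With T-5224, 7 of the 20 fell and 10 rose, against 39.4% and 40.3% of all genes (median 0.20). The receptor gene Il6ra, named for this reason only, was among the 7 and passed the filter only through DMSO (2.84 to 0.61 RPKM). Irf9, also of interferon signalling (−1.82, adjusted p = 1.07e-09, limma), fell, while Cebpb (2.75, adjusted p = 3.29e-12, limma), Cebpd (3.04, adjusted p = 2.68e-11, limma) and the NF-kB subunit Relb (2.68, adjusted p = 2.62e-11, limma) rose. The C/EBP and NF-kB genes of the list did not all rise. Cebpa fell (−1.36), Nfkb1 had no call (−0.003), and Nfkb2 and Rela rose (1.69 and 0.41), all named after their values were seen. Factors of the C/EBP and NF-kB families are known to induce C3 and Cfb in other settings. Both genes were at or below 0.073 RPKM in all 4 libraries of that experiment, at most about 12 reads. Whether these factors act on C3 or Cfb in these cells was not tested.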

How the data were processed

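The data were 2 deposited tables, 1 per inhibitor. After TopHat alignment of stranded mRNA libraries to mm9, the authors computed the RPKM with HOMER and deposited them to 3 decimals. The strand setting of the counting is not given in the sources used here. Their own comparison used DESeq2 on counts, which were not used here. For T-5224, sample titles give DMSO the numbers 4 and 5 but columns give 1 and 2, so these were taken as a group. The study's methods call the libraries biological replicates.

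Rows whose name had become a date (22 and 23) were left out. Tests used limma 3.58.1 (R 4.3.3) for the 10842 and 10809 genes whose RPKM averaged 1 or more. Values entered as log2(RPKM + 0.5), the prior variance followed mean level, and p-values were adjusted by Benjamini-Hochberg. Lower or higher means an adjusted p under 0.05, and down more than 2-fold adds that limit. Depth was read from RPKM of genes shorter than 250 bases, which lie on whole reads (within 0.06 of a read for 99.1% to 100.0% of values of up to 5 reads), and was 31.9 to 51.4 M reads. On simulated tables, 200 of 200 and 199 of 200 changed genes were recovered, with 0 false calls each. The fold and the noise put into those tables are not stated here, so nothing about the members is read from these counts.

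The members and lists were chosen with earlier results of these data known. Named besides the 9 members are copies of members, up to 6 list genes per experiment with the largest change past an adjusted p of 0.05, and defining markers. Others are marked. One gene that this rule names is not reported here. Alternatives were pseudocounts of 0.1 and 1, no filter, a stricter filter at 5 RPKM, unadjusted p-values, median centring, quantile normalization, no trend, a replicate block (for T-5224 added after seeing the data), and each library left out.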

Additional observations from a re-analysis of the deposited data

How the results depend on the processing

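Every member tested kept its direction under all alternatives that kept it among the genes tested. The members were selected on differences in these same libraries, so nothing is read from that. With genes of a mean RPKM of at least 5 only, 1 member (C1s1) was lower with SB431542 and 1 (C1s1) with T-5224, in place of 4 each, and it was the 1 down more than 2-fold, because the other 3 were no longer tested. Of the other complement genes 1 was then lower with SB431542 and 2 with T-5224. With no filter on low values Cd55 was also lower with T-5224 (log2 change −0.77), and not with SB431542 (−0.29). For SB431542, a replicate block left 3 members lower, Cd59a (−0.33) losing its call, and the count of all lower genes went from 1085 to 699 and of higher genes from 1107 to 572. Samples with the same number share only that number (correlations of their deviations −0.15, 0.15 and −0.09). For T-5224 the titles share no numbers, but the table's columns do. With those column numbers as a replicate block, an alternative chosen after seeing the data that leaves 1 residual degree of freedom per gene, 4 members were lower and 3 down more than 2-fold, with 4364 lower and 4464 higher of all genes, against 4260 and 4356 without it. The correlation of same-numbered columns was 0.06. With each library left out, the members lower were 3 to 4 with SB431542 and 4 with T-5224. DMSO replicate 1 of the SB431542 experiment deviated most from its group (SD 0.272, others at most 0.190). Without it, 1900 genes were lower and 2163 higher, and C1s1, C1ra, C1qtnf3 and Cd59a had log2 changes of −1.37, −0.57, −2.67 and −0.31. Over all libraries left out, 433 to 1900 genes were lower and 300 to 2163 higher with SB431542, and an unadjusted p gave 1842 and 2070. With few reads in C3, C4b, Cfb and Serping1, depth limits what can be said of them.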
